A study of Mus musculus with 13 samples.

Results

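Cytokine receptor genes were examined in a CUT&RUN series on STAT3 in activated mouse B cells. The 32 genes encode mostly chains of type I and type II cytokine receptors, and a few receptors of other classes (Il1r1, Il18r1, Il17ra and Csf1r). They were found by symbol in the RefSeq gene table of the assembly behind mm10, among 21887 protein-coding genes. A peak or region was assigned to a gene when it overlapped the gene's span or the 50 kb on either side. Since these windows overlap where receptor genes are neighbours, a region could belong to several of them.

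CUT&RUN cuts and releases chromatin at sites where an antibody, here clone 124H6 against STAT3, is bound. Splenic B cells of wild-type (WT) mice and of mice labelled STAT3 knockout (KO) were cultured for 96 h with anti-CD40 at 1 µg/mL and IL-4 at 12.5 ng/mL. They were then sorted as IgM+ or IgG1+ and restimulated for 1 h. Restimulation was with anti-CD40 plus IL-4 at 12.5 ng/mL, or with anti-CD40 plus IL-21 at 10 ng/mL and no IL-4. The presence of IL-21 and the removal of IL-4 therefore cannot be told apart. The 4 WT groups (IgM or IgG1, IL-4 or IL-21) had 2 libraries each and the 4 KO groups had 1 each. The labels give no strain or age, do not say how Stat3 was deleted, and do not tie replicate libraries to separate mice, so p-values measure only the spread between libraries. Peak lists carry no expression values, so the cell type and the knockout were taken from the labels. An input sample was not analysed here.

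Most of these receptors work as pairs or trios of chains, with ligand-specific chains joined to shared ones. The common gamma chain (Il2rg) serves IL-2, IL-4, IL-7, IL-9, IL-15 and IL-21, gp130 (Il6st) serves the IL-6 family, and the common beta chain (Csf2rb) serves IL-3, IL-5 and GM-CSF. Bound type I and type II receptors activate Janus kinases, which phosphorylate STAT proteins. The IL-21 receptor acts largely through STAT3, and the IL-4 receptor through STAT6. Active STAT dimers bind palindromes in which TTC and GAA are separated by a short spacer.

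Those palindromes are shown first in the promoters of the member genes, taken from RefSeq promoter windows on GRCm38.p6 that run from 250 bases before to 50 bases after a listed start. Windows were found for 24 of the 32 genes, 29 windows in all. The motif TTCNNNGAA, which reads the same on both strands, occurred in 5 of the 29 windows (17.2%), against 8.30% of 32851 windows of all genes. TTCNNNNGAA occurred in 4 windows (13.8%), of 3 genes, against 6.95% of all windows. Il18r1 counts more than once there, since overlapping windows of it held the same match. In the member windows no match of the shorter spacing overlapped one of the longer. Peaks from the 12 libraries overlapped only 1 of the 29 windows, that of Ifngr2, the second chain of the interferon gamma receptor. That promoter is printed whole (chr16:91546809-91547108, + strand), and for Il7r, Ifnar1, Ifnar2 and Il12rb2 the match with its flanks, chosen after their values were seen. Matches of Il18r1, which held both motifs, and of Il5ra, which held the longer, are not printed. Neither gene had a peak in any library. Capitals mark the motif, each sequence reads 5′ to 3′ on the gene's strand, and a match is a run of letters, not a known binding site.
Ifngr2 promoter: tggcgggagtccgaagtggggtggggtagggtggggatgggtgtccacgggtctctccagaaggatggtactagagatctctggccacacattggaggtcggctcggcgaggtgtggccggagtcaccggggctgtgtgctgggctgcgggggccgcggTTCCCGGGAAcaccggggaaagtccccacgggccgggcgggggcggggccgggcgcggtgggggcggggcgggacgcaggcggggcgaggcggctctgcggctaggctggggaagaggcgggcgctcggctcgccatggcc
Il7r (chr15:9529999-9530029): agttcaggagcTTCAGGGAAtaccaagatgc
Ifnar1 (chr16:91485199-91485229): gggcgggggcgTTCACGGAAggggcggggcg
Ifnar2 (chr16:91372558-91372588): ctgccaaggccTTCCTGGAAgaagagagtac
Il12rb2 (chr6:67376292-67376322): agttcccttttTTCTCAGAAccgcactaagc
In Ifngr2 the first base of the motif lay 91 bases before the listed start. The peak over it came from the first IgM library of WT cells with IL-21. Its fold enrichment of 3.07 ranked 1999 among the 2034 peaks of that list. The span of this peak covered the motif, but its summit lay 226 bp after the listed start, at the far end of the peak. The other 4 stretches had no peak over them in any of the 12 libraries, although Il7r had a recurring site outside its promoter, 42422 bp from the gene. The promoter windows of Il1r1, Csf2ra and Csf3r, which also had recurring regions, held neither motif.

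The 12 deposited lists held 623 to 2034 peaks each on chromosomes 1 to 19, X and Y, 13513 in all. Each value below is the authors' fold enrichment of a peak over local background, as deposited. Sequencing depth is not in the lists, but pileups could be solved from fold and p for all 54 peaks near the receptor genes, and by library for 99.0% to 100% of all peaks whose −log10 p was below 30. The weakest called peaks stood on 10 to 12 fragments, and more were needed where the background was higher, so a site without a peak is a site below the call threshold, not an empty one. Merging peaks that shared 1 bp or more between libraries gave 11227 regions. A region was called recurring when at least 2 of the 4 libraries of a set (WT with IL-21, WT with IL-4, or KO with either cytokine) had a peak in it, and gained when it recurred with IL-21 and had none in WT with IL-4 or in KO.

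Of the 13513 peaks, 54 lay near receptor genes. Of these, 36 were in the 4 WT libraries with IL-21, 7 in the 4 WT libraries with IL-4 and 11 in the 4 KO libraries. By library, IL-21 gave 18 and 8 peaks in the WT IgM pair and 3 and 7 in the WT IgG1 pair. With IL-4 the WT IgM pair gave 4 and 0 and the WT IgG1 pair 3 and 0. In KO the counts were 3 (IgM, IL-4), 4 (IgG1, IL-4), 2 (IgM, IL-21) and 2 (IgG1, IL-21). The sets overlapped, since the lowest count with IL-21 in WT, 3, was reached or passed in 2 WT libraries with IL-4 and 2 KO libraries. List lengths ran from 865 to 2034 peaks in WT with IL-21, from 623 to 1455 in WT with IL-4 and from 648 to 1892 in KO. The longest list with IL-21 and the longest with IL-4 in WT had the most receptor peaks of their sets, but the KO list of 1892 had only 4, and among the WT lists with IL-4 the list of 853 had 0 where the list of 651 had 3. Per list, receptor peaks made up 0.347% to 0.885% of the peaks with IL-21 in WT, 0% to 0.461% with IL-4 in WT and 0.186% to 0.393% in KO, so these ranges overlapped too.

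**Figure D1:**
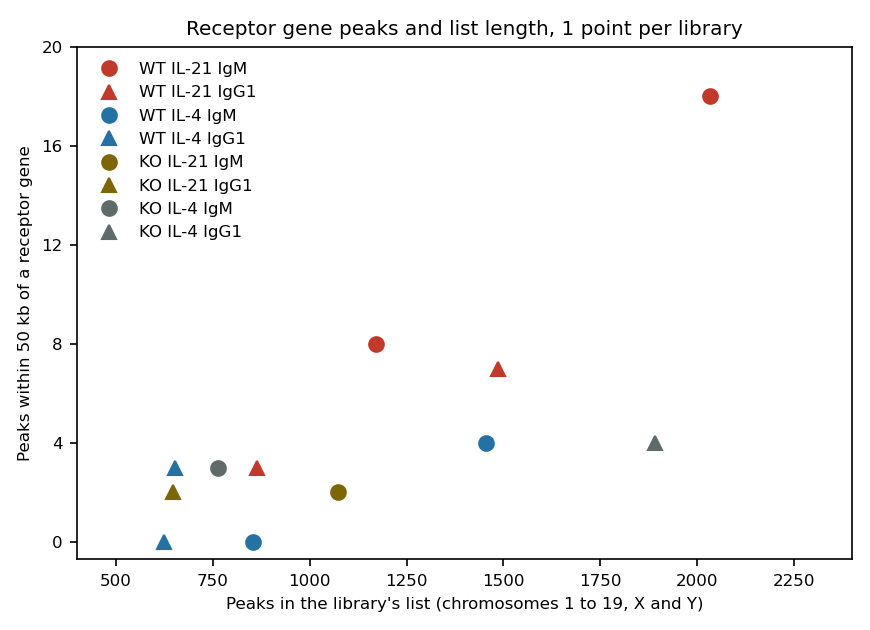
Number of peaks within 50 kb of a receptor gene (y axis) against the number of peaks in the library's list (x axis), 1 point per library, coloured by genotype and cytokine, circles for IgM+ and triangles for IgG1+ cells. The first IgM library with IL-21 stands highest on both axes, with 18 receptor peaks in a list of 2034, while the KO IgG1 library with IL-4 has 4 in a list of 1892.

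The 54 peaks formed 40 regions, and 34 of them (85%) were seen in 1 library only, against 90.7% of all regions. Of the 32 genes, 21 had a peak in at least 1 library. Sites recurring with IL-21 were found at 4 genes, Il1r1, Csf2ra, Il7r and Csf3r, or 12.5% of the members against 7.74% of all genes. All 4 sites were gained, against 5.56% of all genes with a gained site. No gene had a site recurring with IL-4, against 0.987% of all genes. A region recurring in KO lay near 2 genes, Ifnar1 and Il10rb (6.25% against 1.68%), and it was the same region for both. No peak in any library was found for 11 genes (34.4% against 43.9%). The member spans were longer than usual, with a median of 26386 bp against 17169 bp for all genes, and their part in these shares was not tested.

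**Figure D2:**
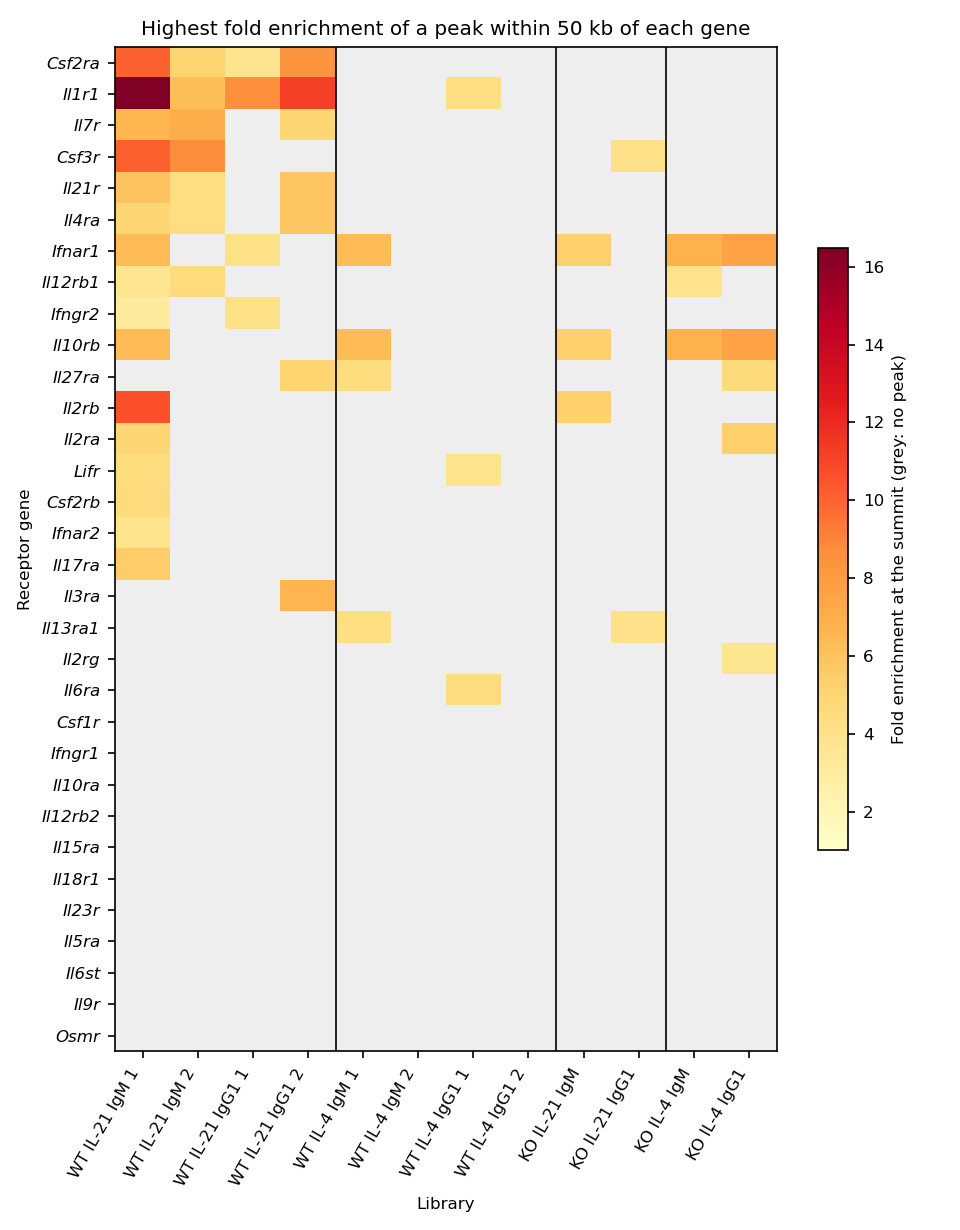
Highest deposited fold enrichment within 50 kb of each receptor gene (rows) in each of the 12 libraries (columns), with empty cells where no peak was listed. Il1r1 and Csf2ra are filled in all 4 WT libraries with IL-21, and the highest value is 16.5 at Il1r1.

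Il1r1, the signalling receptor for IL-1, had the highest mean fold of these sites, an order that rests on the first IgM library with IL-21. Without that library the mean was 8.63 over 3 libraries at Il1r1, and Csf3r had 8.66 in its 1 remaining library. Libraries without a peak do not enter these means. The region at chr1:40262652-40263613 lies within the gene (40222480 to 40316201), with its summit at -3436 bp relative to the nearer of its listed starts. Its fold enrichment with IL-21 was 16.5 and 6.16 in the IgM libraries and 8.57 and 11.2 in the IgG1 libraries (mean 10.6 ± 4.43, SD, n = 4). Both cell populations thus had it, and the IgM pair differed more than the IgG1 pair. The peaks stood on 28 to 49 fragments over a background of 2.03 to 3.71. They ranked 61 of 2034, 179 of 1171, 40 of 865 and 57 of 1485 in their lists. None of the 4 WT libraries with IL-4 and none of the 4 KO libraries had a peak there. A separate peak elsewhere in the gene (chr1:40233653-40233876) was listed in the first IgG1 library with IL-4, with a fold of 4.29.

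Csf2ra, the ligand-binding chain of the GM-CSF receptor, was the other gene with a site in all 4 WT libraries with IL-21. The region at chr19:61226713-61227481 lies within the gene, 1204 bp inside from its listed start. Fold enrichment was 10.1 and 5.09 in the IgM libraries and 3.73 and 8.38 in the IgG1 libraries (mean 6.81 ± 2.92, SD, n = 4). The lowest of these ranked 773 of 865 in its list, while the highest ranked 175 of 2034. Local background was high at this locus, 5.06 to 9.22 fragments, so that 17 to 25 fragments would have been needed for a call there, and 31 to 60 were found. WT cells with IL-4 and KO cells had no peak within the window of the gene. A further IL-21 peak within the gene (fold 4.77) and 1 beyond it (4.49) were each seen in 1 library.

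Presence in 4 of 4 libraries with IL-21 and 0 of 4 with IL-4 gave Fisher's exact test p = 0.0286 (two-sided) at Il1r1 and at Csf2ra, the smallest p that 4 against 4 libraries allow. Of all 7461 regions with a WT peak, 98 (1.31%) had that pattern with IL-21 higher. The test pooled IgM and IgG1 libraries. With Benjamini-Hochberg adjustment over those 7461 regions the adjusted p was 1 at both genes. With that smallest p, a region could pass only if most of the 7461 had such a pattern. That 0 of the 32 member regions with a WT peak passed, and 0 of all 7461 (0%), therefore does not tell sites apart.

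**Figure D3:**
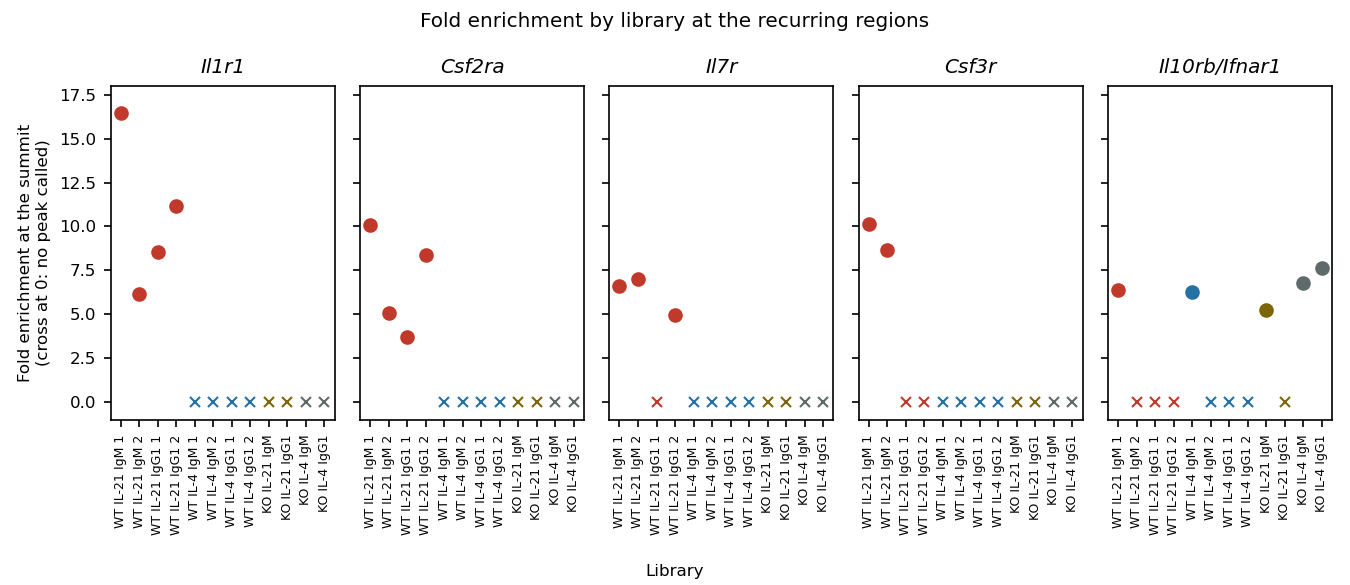
Deposited fold enrichment (y axis) at the recurring receptor regions, 1 point per library, coloured by genotype and cytokine, and a cross at 0 for a library with no listed peak. The Il1r1 values run from 6.16 to 16.5 and the Csf2ra values from 3.73 to 10.1, all in WT cells with IL-21, whereas the Ifnar1 and Il10rb region has points from all 3 sets.

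Il7r encodes the alpha chain of the IL-7 receptor, known for its role in early lymphocytes. Its recurring region (chr15:9463681-9463923) lay 42422 bp outside the gene and within Capsl. With IL-21 the fold was 6.62 and 6.99 in the IgM libraries and 4.96 in the second IgG1 library (mean 6.19 ± 1.08, SD, n = 3), on 19 to 31 fragments, and the first IgG1 library had no peak. Fisher's exact test of IL-21 against IL-4 in WT gave p = 0.143. The edges of the 3 peaks coincided, with starts within 3 bp and ends within 1 bp. Only 4 of 346 regions with 1 peak in each of at least 3 WT libraries with IL-21 (1.16%) had both edges within 5 bp, where the median spreads were 151.5 bp for starts and 170 bp for ends. The part of this in the Il7r call was not tested.

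Csf3r, the G-CSF receptor, is best known from granulocytes. Its region (chr4:126003998-126004424) lay between genes, 19183 bp from Csf3r, which was also the nearest gene. The fold with IL-21 was 10.1 and 8.66 in the IgM libraries (mean 9.39 ± 1.03, SD, n = 2), on 39 and 32 fragments, and both IgG1 libraries lacked the peak. Whether IgM and IgG1 cells differ here was not tested. The peaks of both IgM libraries started at the same base, 126003998, and ended at 126004424 and 126004344. The part of the shared start in the Csf3r call was not tested. In KO, the IgG1 library with IL-21 had another peak, within Oscp1, with a fold of 4.06.

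The colony-stimulating factor, IL-3 and IL-5 receptors had 2 of the 4 genes recurring with IL-21, from 6 genes and 7 regions. Of the others, Il3ra, the IL-3 receptor alpha chain, had an IL-21 peak of fold 6.64 in the second IgG1 library, with its summit at -504 bp relative to the listed start. Csf2rb, the common beta chain, had 1 of fold 4.59 in the first IgM library, 22822 bp away. Il5ra and Csf1r, the receptors for IL-5 and M-CSF, had none in any library.

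The common gamma chain family (8 genes, 11 regions) had Il7r as its 1 gene with a recurring site. Il21r, the receptor chain for IL-21 itself, had 4 regions, each in 1 library and all in WT cells with IL-21. Their folds were 5.96 and 4.94 in the first IgM library, 4.39 in the second IgM library and 5.78 in the second IgG1 library. In 3 of these the region also lay within 50 kb of Il4ra, the IL-4 receptor alpha chain and neighbour of Il21r. No position recurred, so neither Il21r nor Il4ra had a recurring site. How many of all genes have peaks at differing positions in WT libraries with IL-21 alone was not computed. The closest pair, from the second IgM and the second IgG1 library, was 238 bp apart (chr7:125597407-125597703 and chr7:125597942-125598175).

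Il2rb, the beta chain for IL-2 and IL-15, had the strongest peak seen in 1 library, with a fold of 10.6 in the first IgM library with IL-21. It stood on 29 fragments at chr15:78450324-78450565, within Tmprss6 and 28814 bp from Il2rb. A weaker peak of the same library (3.83) lay 305 bp from it, and the KO IgM library with IL-21 had a peak of 5.25 on the other side of the gene. Il2ra, the inducible alpha chain, had an IL-21 peak of 4.94 within the gene in the first IgM library. It also had a peak of 5.30 in the KO IgG1 library with IL-4, 800 bp outside the gene, the highest in KO among regions seen in 1 library. For Il2rg the only peak was in that same KO library, with a fold of 3.64. Il9r and Il15ra had none.

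Receptors of the interferon and IL-10 class held the KO site (6 genes, 6 regions). The region at chr16:91464704-91465201 lies between genes, 20071 bp from Ifnar1, a chain of the type I interferon receptor, and 39127 bp from Il10rb, a chain shared by IL-10, IL-22 and the type III interferons. Its fold was 6.76 (IgM, IL-4), 7.61 (IgG1, IL-4) and 5.25 (IgM, IL-21) in KO libraries, absent in the KO IgG1 library with IL-21. WT cells had it in the first IgM library with IL-21 (6.36) and the first IgM library with IL-4 (6.27). The levels thus overlapped between KO and WT, and peaks stood on 16 to 22 fragments. In the KO lists it ranked 33 of 763 (IgM, IL-4), 7 of 1892 (IgG1, IL-4) and 157 of 1073 (IgM, IL-21). In the WT lists it ranked 567 of 2034 with IL-21 and 55 of 1455 with IL-4. Ifnar2, the partner chain of Ifnar1, shared with Il10rb an IL-21 peak of fold 3.83, within Il10rb. Ifngr2 had, besides the promoter peak shown above, an IL-21 peak of 4.01 in the first IgG1 library, 2460 bp outside the gene. Il10ra and Ifngr1, the partners of Il10rb and Ifngr2, had none.

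The gp130 and IL-12 receptor class (8 genes, 11 regions) had no recurring site in any set. Il27ra, the IL-27 receptor, had a region in WT cells under both cytokines, at 5.06 for IL-21 (second IgG1 library) and 3.96 for IL-4 (first IgM library), at chr8:84025967-84026280 within Palm3. It also had a peak of 4.48 in that IL-4 library, the highest with IL-4 among WT regions seen in 1 library, and of 4.63 in the KO IgG1 library with IL-4. Il12rb1, the chain shared by IL-12 and IL-23, had 5 regions, 4 with IL-21 (3.64 to 4.62) and 1 in KO (3.89). A pair of them, from the first and the second IgM library, lay 20 bp apart in Pik3r2 without overlapping (3.64 and 4.09). Lifr, the LIF receptor, had a peak of 4.45 with IL-21 and another of 3.80 with IL-4, while Il6ra, the IL-6 receptor alpha chain, had only 1, with IL-4 (4.41). No peak was listed near Il6st, Osmr, Il12rb2 or Il23r.

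Of the remaining 4 genes, for the IL-1, IL-18, IL-17 and IL-13 receptors (5 regions), Il1r1 alone had a recurring site. Il17ra, a chain shared by IL-17 cytokines, had a peak of 5.53 within the gene in the first IgM library with IL-21. Il13ra1, an IL-13 receptor chain, had a peak of 4.29 in the first IgM library with IL-4 and of 4.06 in the KO IgG1 library with IL-21. Il18r1, the IL-18 receptor chain, had none.

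**Figure D4:**
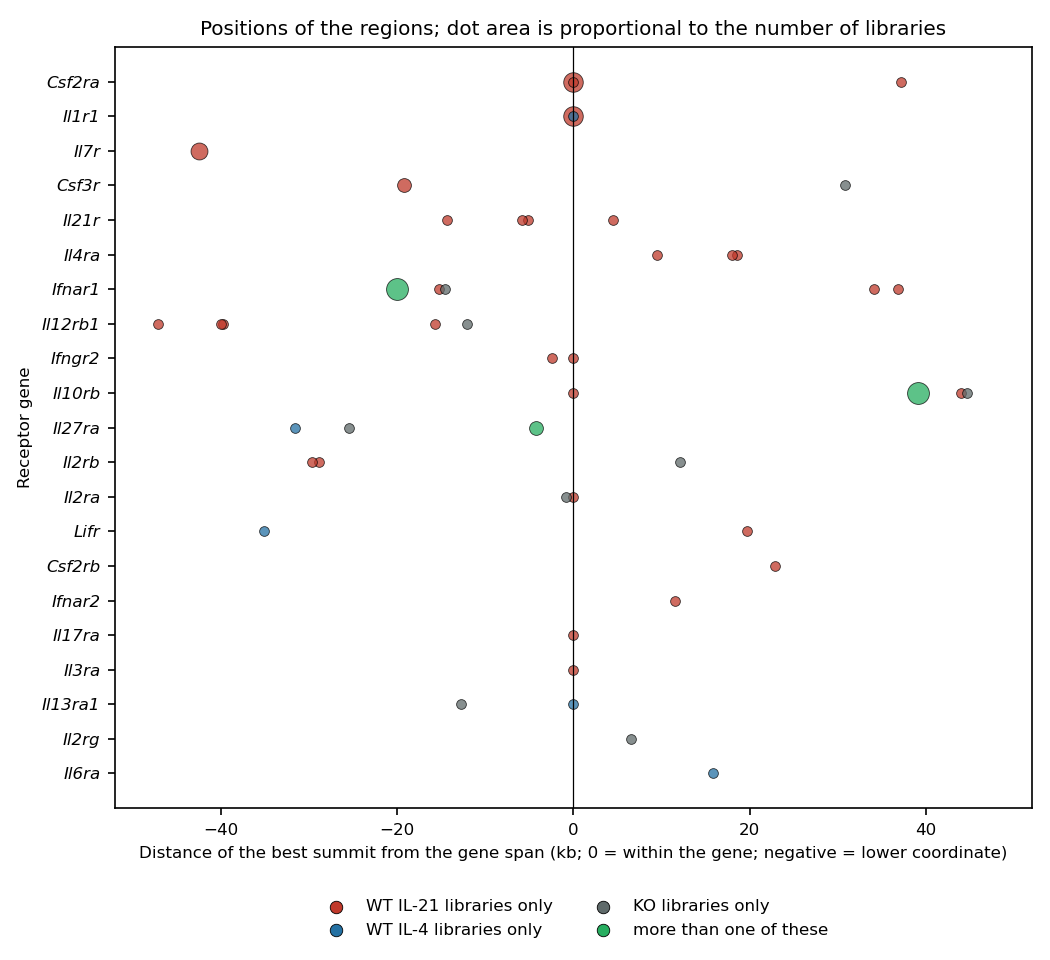
Position of each receptor region relative to the gene (x axis, distance from the gene's span in kb, 0 within it) for every receptor gene with a peak, coloured by the set of libraries with the peak and with dot area proportional to their number. Il1r1 and Csf2ra have their recurring regions within the gene, while those of Il7r and Csf3r lie 42422 bp and 19183 bp away.

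Across all 40 regions, 10 had their summit within a member gene, and a member was the nearest gene for 22. Regions seen in 1 library had folds of 3.07 to 10.6 (median 4.59, 21 regions) with IL-21 in WT, 3.80 to 4.48 (median 4.29, 5 regions) with IL-4 in WT and 3.64 to 5.30 (median 4.35, 8 regions) in KO. These ranges overlapped, and 13 of the 21 came from the first IgM library, the longest list.

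Other genes of cytokine signalling give a scale for these counts, in lists picked with earlier results known. Of 21 genes for signalling next to the receptor and its feedback, 15 had a site recurring with IL-21, against the 4 of 32 receptor genes. Of the 15, 14 had a gained site, and 2 of the 21 had one recurring with IL-4. Over all genes the shares were 7.74% recurring with IL-21, 5.56% gained and 0.987% recurring with IL-4. Median spans were 33419 bp for these genes, 5242 bp for ligand genes, 39594 bp for other receptors and 11447.5 bp for the TNF receptor family. The part of span in the counts was not tested. The mean fold was 18.1 ± 6.47 (SD, n = 4) at a site 13532 bp outside Socs3, a feedback inhibitor of cytokine receptors. At a site within the phosphatase gene Ptpn1 it was 9.79 ± 4.83 (SD, n = 4). Neighbouring genes shared sites, as Stat3, Stat5a and Stat5b did. Stat2 and the ligand gene Il23a also shared a site, so it counts in both lists. Among 27 ligand genes of these receptors, 6 had a site recurring with IL-21, 4 of them gained, led by Il10 at 14.0 ± 4.68 (SD, n = 4). Among 27 other receptor genes 1 did: Crlf2, the receptor chain for TSLP that pairs with Il7r, with a site within the gene in 4 of 4 libraries (12.6 ± 6.72, SD). Of 16 genes of the TNF receptor family, 2 had a site recurring with IL-21, which was gained and was the same region for both, Tnfrsf4 and Tnfrsf18 (6.86 ± 1.78, SD, n = 3). That region lay 20509 bp from Tnfrsf4 and 33236 bp from Tnfrsf18. The share of the TNF receptor family, 12.5%, equals that of the receptor genes. Marker genes of B cells (5), of myeloid cells (5) and of T and NK cells (6) had a site recurring with IL-21 at 0, 0 and 1 gene.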

How the data were processed

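STAT3 CUT&RUN was analysed in 12 libraries from 13 samples. Reads were processed with Trimmomatic 0.39, Bowtie2 2.4.1, MACS2 2.2.7.1 and deepTools 3.5.1 on mm10, per the submitters' processing notes; the peak caller's settings were not stated there. The deposited lists give, per library, a score, a fold (ratio) over background and a −log10 p and −log10 q for each peak. The lowest −log10 p was 5.00. Positions were made 1-based. Of 13908 peaks, 395 on other sequences were left out.

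The members and all gene lists were chosen with earlier results of these data known. Computed here with Python 3.11.15, pandas 2.3.3, scipy 1.17.1 and statsmodels 0.14.6 were the merged regions, their overlap with RefSeq spans (GRCm38.p6), counts of libraries and Fisher's exact test per WT region with Benjamini-Hochberg adjustment. Named genes were those with a recurring region and the strongest regions seen in 1 library; others were named afterwards, for their place in a family. Pileups were solved from fold and p, to 0.001 in −log10 p, for all 54 member peaks, 5 of them with a −log10 p of 30 or more; the share solved per library covers peaks below 30. Scripts were tested on simulated data. Alternatives covered flank, peak threshold, overlap, number of libraries, list length, each library left out, permutation within isotype and the replicate block.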

Additional observations from a re-analysis of the deposited data

How the results depend on the processing

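The main limits are the short lists and the 50 kb flank. With the gene span alone, 2 genes had a site recurring with IL-21, 2 a gained site, 0 a site recurring in KO and 24 no peak. With 10 kb the counts were 2, 2, 0 and 20. With 100 kb, 6 genes had a site recurring with IL-21 (adding Il17ra and Il4ra), 5 a gained site, 4 a site recurring in KO and 7 no peak. At a −log10 q of at least 5, 20 had no peak. Merging peaks within 500 bp, chosen after seeing the data, gave 7 recurring and 7 gained with IL-21. This added Il12rb1, and Il21r and Il4ra through the same pair of peaks. Shares over all genes were computed only at the main setting, so counts at the other settings have no such share beside them. With each library left out, recurring and gained sites with IL-21 ran from 3 to 4 genes (3 without the first or the second WT IgM library with IL-21, losing Csf3r). Genes with no peak ran from 11 to 14, genes recurring in KO stayed at 2 and with IL-4 at 0. The mean fold ran from 8.63 to 12.1 at Il1r1, 5.73 to 7.84 at Csf2ra, 5.79 to 6.81 at Il7r and 8.66 to 10.1 at Csf3r. At Csf3r each end of the range is the value of 1 library. With lists cut to 623 peaks each, 4 genes recurred with IL-21 and 2 in KO. Apart from leaving out libraries, 46 of 59 recomputed values kept their call, stayed within the replicate spread or, for counts, lay within 1.5 times the reported count. Those values include test counts for which the smallest possible p left little or no room to pass. Folds identical to the main ones are also among them, so this share does not measure how stable the gene counts are. In an exact permutation of the WT libraries within isotype, 0 member regions passed, and no p below 0.0556 was possible. The replicate block, an exact permutation within pairs, also passed 0 member regions and allows no p below 0.125. Replicate numbers were not shown to pair the libraries (correlation of deviations -0.103 in IgM over 37 regions and -0.0625 in IgG1 over 27), and crossing the IgM pairing also gave 0.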
